A study of Mus musculus with 54 samples.

Results

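Wild-type mouse bone marrow-derived macrophages (BMDMs) that had been exposed to R837 for 8 h were compared with the same kind of cells exposed to Pam3 for 8 h. The comparison rests on 6 of the 54 RNA-seq libraries of the study, 3 for each ligand, chosen by their labels, and on all genes counted in them. The cells were grown for a week with M-CSF from the marrow of C57BL/6N mice, and the labels give each replicate as a culture from a different mouse. The labels name no transgene or allele for wild type, and give no dose for either ligand. Untreated wild-type cells, the same pair of ligands at 4 h, and the 8 h pair in N4bp1 knockout cells served as reference groups, each with 3 libraries. The labels do not say how N4bp1 was deleted; the gene encodes a protein that restrains NF-kB signalling.

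Pam3CSK4, called Pam3, is a synthetic lipopeptide that binds TLR2 together with TLR1 at the cell surface. R837, also called imiquimod, acts on TLR7 inside endosomes. Both receptors signal through the adaptor MyD88 to NF-kB and MAP kinases. Endosomal receptors of this class can also engage interferon regulatory factors, and macrophages that secrete type I interferon respond to it through their own receptor. Interleukin-10, made in the course of such responses, restrains the cells that make it.

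The 6 libraries held 20033154 to 38467110 counts and 16388 to 17486 genes with at least 1 count. The level of Y-linked transcripts was 179, 63.8 and 0.132 CPM (counts scaled to library size) in R837 replicates 1, 2 and 3 and 0.154, 207 and 65.5 CPM in Pam3 replicates 1, 2 and 3. Each ligand thus had 1 library with a high, 1 with an intermediate and 1 with a near-zero level, under different replicate numbers. In R837 and Pam3 in turn, Xist was at 101 and 99.4 CPM in the intermediate libraries, 19.4 and 24.3 CPM in the high and 88 and 100 CPM in the near-zero ones. Libraries with high or intermediate Y-linked levels thus also held Xist, although the labels give each replicate as a culture from a different mouse. The cause was not tested. On raw library totals the 9 core macrophage markers summed to 23418 to 26717 CPM under R837 and 27329 to 30779 CPM under Pam3. The labelled cell type was thus present throughout. Tested gene by gene, with other scaling, 2 of the 9 were higher under R837, 0 lower and 7 did not pass (median log2 difference 0.145). The gap between the sums may therefore depend on the scaling. In bulk RNA, fewer cells of a type and less RNA per cell cannot be told apart.

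Of 14970 genes tested, 1072 were higher under R837 than under Pam3 (7.16%) and 654 were lower (4.37%), at an adjusted p under 0.05 in edgeR's quasi-likelihood test. The changes were mostly modest, with a median absolute log2 difference of 0.55 among the 1726 called genes (11.5% of those tested). Past 2-fold there were 227 genes higher and 75 lower and past 4-fold 36 and 12. In 1599 of the called genes the 3 libraries of one ligand lay entirely above the 3 of the other. Over all genes tested this separation, called or not, occurred for 14.4% in the direction of R837 and for 13.5% in the direction of Pam3. The count of called genes was 975 without R837 replicate 3 and 1126 without Pam3 replicate 3. Against untreated cells, 8585 genes (57.3%) passed under R837 and 7809 (52.2%) under Pam3, so both ligands had moved a large part of the transcriptome. Those comparisons share the untreated libraries.

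**Figure D1:**
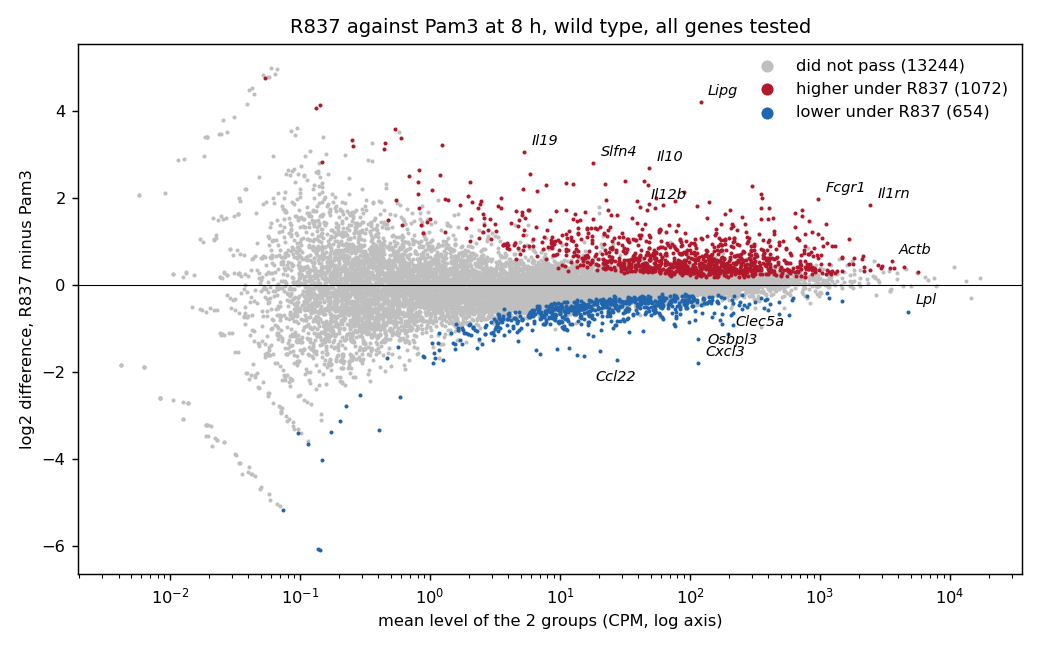
Log2 difference between R837 and Pam3 at 8 h in wild-type cells (vertical axis) against the mean CPM of both groups (horizontal, log axis), 1 point per gene tested. The 1072 genes higher under R837 are red and the 654 lower are blue; Lipg lies at 4.20 and Cxcl3 at -1.79.

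Il10, Il19 and Il1rn, the gene of the IL-1 receptor antagonist, were among the cytokine genes higher under R837. In the cytokine list 7 of 24 tested members were higher under R837, 1 lower and 16 did not pass (median log2 difference 0.46). With 1 library of each ligand at the same Y-linked level, R837 was above Pam3 in 18 of 24 (median log2 difference 0.83) at the near-zero level, 16 of 24 (median log2 difference 0.43) at the intermediate and 15 of 24 (median log2 difference 0.13) at the high level. Values of single libraries are given below in the order of replicates 1, 2 and 3, and errors of log2 differences are SE. List counts at 8 h, here and below, stand against 7.16% higher and 4.37% lower over all genes tested. Il10, the main anti-inflammatory cytokine of macrophages, stood at 64.3, 81.3 and 107 CPM under R837 and 9.07, 17.5 and 12.5 CPM under Pam3. The lowest R837 library was far above the highest Pam3 library (log2 difference 2.69 ± 0.19, edgeR adjusted p = 4.45e-13). Il19, a member of the IL-10 family, stood at 6.70, 9.52 and 12.3 CPM under R837 and 1.28, 0.947 and 1.18 CPM under Pam3. Its Pam3 libraries were close to 1 CPM and the R837 libraries did not overlap them (log2 difference 3.05 ± 0.52, edgeR adjusted p = 4.34e-05). Il1rn, which encodes the secreted antagonist of the IL-1 receptor, was measured at 3240.3, 3771 and 4326 CPM under R837 and 1123, 1055 and 1021 CPM under Pam3. This was the largest gain in mean CPM among called genes without overlap between the groups (log2 difference 1.83 ± 0.23, edgeR adjusted p = 2.93e-07). Il12b, the subunit shared by IL-12 and IL-23, reached 43.9, 63 and 115 CPM under R837 and 18.5, 11.7 and 12.2 CPM under Pam3. The R837 libraries were spread widely but all were above the Pam3 libraries (log2 difference 2.39 ± 0.40, edgeR adjusted p = 4.38e-05). Il12a, which pairs with Il12b to make IL-12, went the other way at 0.447, 0.381 and 0.457 CPM under R837 and 1.70, 1.15 and 1.28 CPM under Pam3. It was the 1 cytokine that was lower under R837 (log2 difference -1.67 ± 0.45, edgeR adjusted p = 0.00847; limma voom adjusted p = 0.06). Its level was low in both groups, so few reads carry that value.

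The classical inflammatory cytokines did not pass. Tnf stood at 1439, 2103 and 2715 CPM under R837 and 1240.2, 1645 and 1378 CPM under Pam3 (log2 difference 0.55 ± 0.21, edgeR adjusted p = 0.0869). Its groups overlapped, and the difference passed with DESeq2 (adjusted p = 0.0424), with no filter on low counts (edgeR adjusted p = 2.67e-06) and without R837 replicate 1 (edgeR adjusted p = 0.016). Il1b, the precursor of IL-1 beta, had non-overlapping groups at 2674, 2851 and 3682 CPM under R837 and 1982, 2425 and 1888 CPM under Pam3, but the test did not call it (log2 difference 0.55 ± 0.28, edgeR adjusted p = 0.226; edgeR adjusted p = 0.0322 when only the 6 libraries were fitted and 2.74e-06 with no filter on low counts). Il6 stood at 32.9, 56.1 and 84 CPM under R837 and 35.5, 57 and 42.2 CPM under Pam3, with the groups interleaved (log2 difference 0.36 ± 0.28, edgeR adjusted p = 0.495; edgeR adjusted p = 0.0298 with no filter on low counts). Ifnb1, the interferon beta gene, was below 2 CPM in every library, at 0.343, 0.381 and 0.229 CPM under R837 and 1.02, 1.19 and 0.932 CPM under Pam3. All 3 R837 values were under the Pam3 values (log2 difference -1.72 ± 0.72, edgeR adjusted p = 0.127; edgeR adjusted p = 0.0276 when only the 6 libraries were fitted).

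The levels at 8 h were set beside those at earlier times. Il10 under Pam3 went from 169 ± 13.2 CPM at 2 h to 13 ± 4.26 CPM at 8 h (SD, n = 3), whereas under R837 it was 129 ± 16.3 CPM at 2 h, 239 ± 8.61 CPM at 6 h and 84.1 ± 21.4 CPM at 8 h. Il12b stood at 237 ± 114 CPM at 4 h and 73.8 ± 36.6 CPM at 8 h under R837, and at 36.3 ± 12.7 CPM and 14.2 ± 3.78 CPM under Pam3. Il12b at 8 h was therefore below its 4 h level under both ligands. The R837 minus Pam3 difference of Il10 was larger at 8 h than at 4 h, where it was 1.66 (log2 difference of differences 1.04 ± 0.26, edgeR adjusted p = 0.00386).

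**Figure D2:**
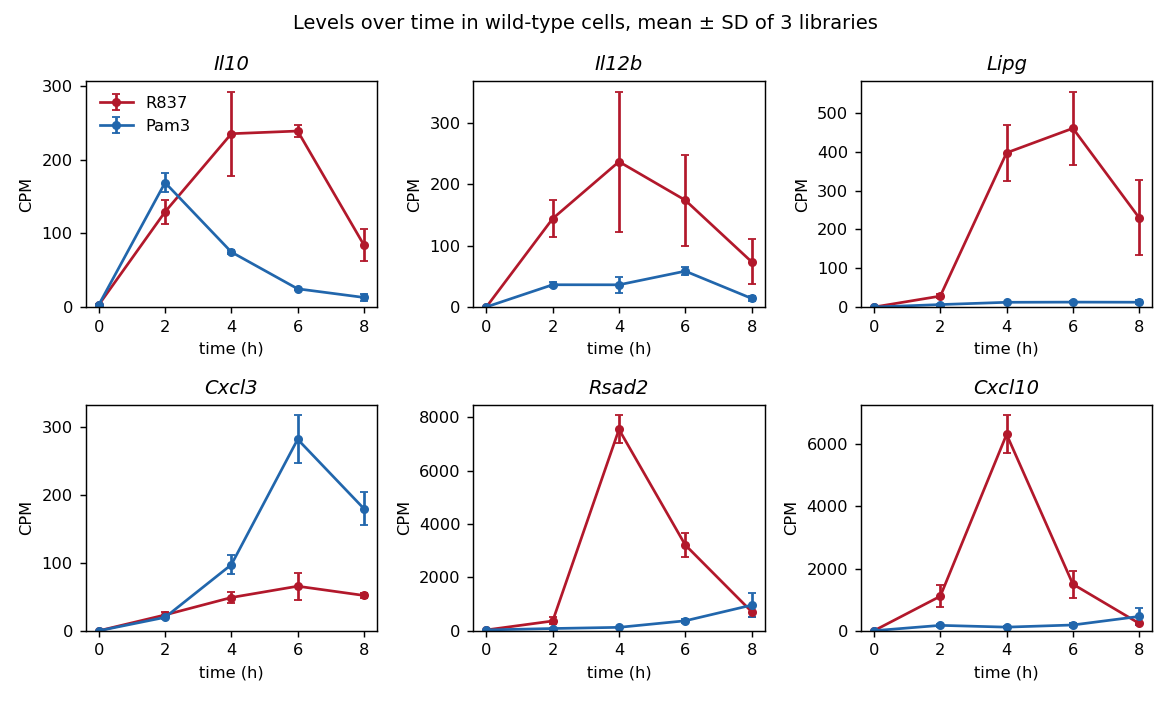
Mean CPM ± SD of 3 wild-type libraries (vertical axes) against hours of exposure (horizontal axes) for 6 genes, with untreated cells at 0 h; R837 is red and Pam3 blue. Il10 ends at 84.1 ± 21.4 CPM under R837 and 13 ± 4.26 CPM under Pam3, and Rsad2 and Cxcl10 peak at 4 h under R837 while their highest mean under Pam3 is at 8 h.

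The list of the IL-10 receptor and its target genes was also partly higher under R837. Of this list, 5 of 10 tested members were higher under R837, 0 lower and 5 did not pass (median log2 difference 0.44). Il21r, a receptor chain of the common-gamma family, was at 29, 33.8 and 44.7 CPM under R837 and 9.33, 8.64 and 9.65 CPM under Pam3 (log2 difference 1.96 ± 0.17, edgeR adjusted p = 5.60e-11). Il4ra, the chain shared by the IL-4 and IL-13 receptors, was at 971, 1202 and 1177 CPM under R837 and 348, 334 and 333 CPM under Pam3 (log2 difference 1.72 ± 0.29, edgeR adjusted p = 4.44e-05). In both genes every R837 library was far above every Pam3 library. The number of higher members was between 2 and 6 when any 1 of the 6 libraries was left out, lowest without R837 replicate 2. Stat3, the transcription factor activated by IL-10, was at 317, 385 and 425 CPM under R837 and 229, 266 and 244 CPM under Pam3 and did not overlap between the ligands (log2 difference 0.61 ± 0.14, edgeR adjusted p = 0.00153). Fcgr1, the high-affinity IgG receptor of macrophages, was at 1256, 1539.9 and 1839.7 CPM under R837 and 350.3, 478 and 350.3 CPM under Pam3, and every R837 library was well above every Pam3 library (log2 difference 1.98 ± 0.17, edgeR adjusted p = 2.39e-11).

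Chemokine genes moved in both directions. Of the CXC chemokines that draw neutrophils, 0 of 6 tested members were higher under R837, 2 lower and 4 did not pass (median log2 difference -0.28). Cxcl3 (chromosome 5, 90786103 to 90789600, plus strand, GRCm38) was at 54.1, 47.8 and 54.1 CPM under R837 and 201, 153 and 185 CPM under Pam3. The R837 libraries stayed in a narrow band, and all Pam3 libraries were higher (log2 difference -1.79 ± 0.18, edgeR adjusted p = 1.97e-09). Cxcl5, of the same family, was detected near the limit of the libraries, at 0.0343, 0.109 and 0.0762 CPM under R837 and 0.944, 0.535 and 0.705 CPM under Pam3 (log2 difference -3.33 ± 0.64, edgeR adjusted p = 2.11e-04). Cxcl1 was at 282, 361 and 566 CPM under R837 and 420.3, 373 and 343 CPM under Pam3, and its groups overlapped (log2 difference 0.09 ± 0.24, edgeR adjusted p = 0.886). Under Pam3 Cxcl3 reached 282 ± 35.1 CPM at 6 h and was 179.7 ± 24.7 CPM at 8 h, and under R837 it was 65.6 ± 19.8 CPM at 6 h.

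Of the other chemokines, which draw monocytes and lymphocytes, 7 of 17 tested members were higher under R837, 1 lower and 9 did not pass (median log2 difference 0.47). Ccl12, a ligand of CCR2, was at 52.4, 71.4 and 104 CPM under R837 and 16.4, 28.8 and 18.4 CPM under Pam3 (log2 difference 1.85 ± 0.23, edgeR adjusted p = 2.93e-07). Ccl4, a chemokine of monocytes and T cells, stood at 1855, 2241 and 2728 CPM under R837 and 1070.5, 1181 and 1031 CPM under Pam3, and the lowest R837 library was above the highest Pam3 library (log2 difference 1.06 ± 0.14, edgeR adjusted p = 5.13e-07). Ccl22, which attracts regulatory T cells through CCR4, ran opposite at 8.11, 10.2 and 20.2 CPM under R837 and 60.9, 29 and 37.1 CPM under Pam3. Its Pam3 libraries were all higher and the R837 libraries differed among themselves (log2 difference -1.72 ± 0.34, edgeR adjusted p = 4.69e-04; edgeR adjusted p = 0.0946 with only the 6 libraries).

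The bases before the start of Cxcl3 are shown because it was the most reduced gene with a RefSeq promoter and a motif match among called genes of at least 5 CPM without overlap between the groups. The window covers the 250 bases upstream of the RefSeq start at chr5:90785851-90786100 on the plus strand of GRCm38.p6, 5′ to 3′. Capitals mark a match to the NF-kB site, searched as GGGA, any base and TTTCC, whose first base lies 73 bases before the start.
Cxcl3: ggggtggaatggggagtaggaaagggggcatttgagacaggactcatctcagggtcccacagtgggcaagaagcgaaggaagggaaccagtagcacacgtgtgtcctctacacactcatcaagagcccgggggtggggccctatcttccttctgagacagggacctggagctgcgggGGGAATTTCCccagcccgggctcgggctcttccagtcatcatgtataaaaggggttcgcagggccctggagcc
This motif, searched on both strands, occurred in 0.507% of 10256 promoters of tested genes, in 1.08% of 831 promoters of genes higher under R837 and in 0.986% of 507 of genes lower. A match is a description of the letters and not a bound site.

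**Figure D3:**
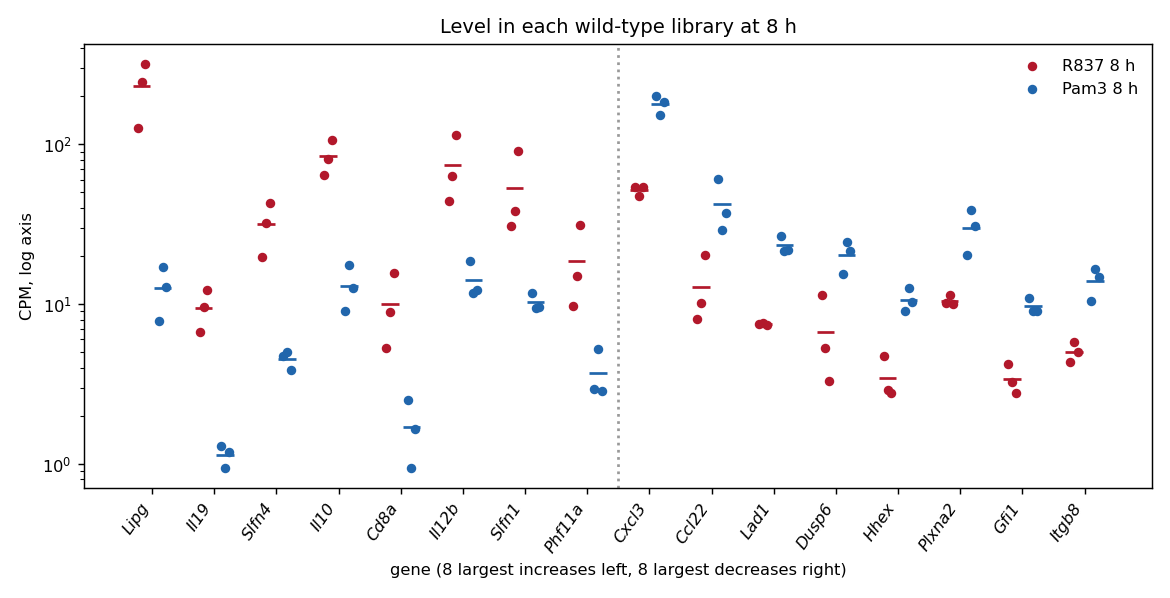
CPM in each library (vertical, log axis) of the 8 genes with the largest log2 increase and the 8 with the largest decrease under R837 among called genes with a mean of at least 5 CPM in the higher group and no overlap between groups, red for R837 and blue for Pam3, with a line at each group mean of 3 libraries. The separation of the groups in these 16 genes was a condition of the choice.

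Lipg (chromosome 18, 74939322 to 74961263, minus strand, GRCm38), which encodes endothelial lipase, had the largest log2 increase of any named gene. It stood at 126, 246 and 317 CPM under R837 and 7.82, 17 and 12.8 CPM under Pam3, with every R837 library above every Pam3 library (log2 difference 4.20 ± 0.45, edgeR adjusted p = 1.07e-08). In untreated cells it was at 0.128 ± 0.0885 CPM, so both ligands raised it and R837 raised it more. Only the fit of 6 libraries with the level of Y-linked transcripts as a term did not call it (log2 difference 4.13, edgeR adjusted p = 0.105). Il10, Ccl12 and Tnfaip3 also lost their calls only in that fit, with log2 differences of 2.69, 1.82 and 0.79 (edgeR adjusted p = 0.0825, 0.177 and 0.165). Lpl, lipoprotein lipase, was lower, at 3771, 4037 and 3508 CPM under R837 and 5325, 6262 and 5700.3 CPM under Pam3 (log2 difference -0.61 ± 0.08, edgeR adjusted p = 5.78e-07). Its libraries did not overlap. Plin2, a lipid droplet coat protein, was at 912, 1039.6 and 1098 CPM under R837 and 673, 576 and 620.0 CPM under Pam3 and higher in each R837 library (log2 difference 0.71 ± 0.09, edgeR adjusted p = 4.11e-07). In the list of lipases and lipid storage 5 of 20 tested members were higher under R837, 1 lower and 14 did not pass (median log2 difference 0.09). Of cholesterol synthesis and uptake genes, 8 of 24 tested members were higher under R837, 0 lower and 16 did not pass (median log2 difference 0.23). Hmgcs1, an early enzyme of the pathway, was at 553, 633 and 729.9 CPM under R837 and 355, 331 and 289 CPM under Pam3 (log2 difference 0.98 ± 0.14, edgeR adjusted p = 2.49e-06). Its R837 libraries all exceeded the Pam3 libraries. The number of higher members was between 4 and 9 when any 1 of the 6 libraries was left out, lowest without Pam3 replicate 3 or R837 replicate 3. Among LXR targets, which include exporters of cholesterol, 0 of 12 tested members were higher under R837, 0 lower and 12 did not pass (median log2 difference 0.0). Scd2 was at 239.7, 165 and 105 CPM under R837 and 213, 275 and 252 CPM under Pam3 (log2 difference -0.54 ± 0.24, edgeR adjusted p = 0.165) and Nr1h3, which encodes LXR alpha, had a log2 difference of 0.32 ± 0.15 (edgeR adjusted p = 0.198). Both passed with the Y-linked level as a term in the fit of all 54 libraries (edgeR adjusted p = 0.00206 and 0.00685). In the 6-library fit with that term Nr1h3 passed (edgeR adjusted p = 0.022) and Scd2 did not.

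Several inflammatory effector enzymes were higher under R837. In the list of nitric oxide, itaconate, prostaglandin and acute-phase genes 6 of 18 tested members were higher under R837, 0 lower and 12 did not pass (median log2 difference 0.53). Nos2, inducible nitric oxide synthase, was at 368, 581 and 774 CPM under R837 and 134, 140.3 and 160.2 CPM under Pam3. The lowest R837 library was well above the highest Pam3 library (log2 difference 1.99 ± 0.36, edgeR adjusted p = 1.11e-04). Ptges, the inducible prostaglandin E synthase, stood at 787, 957 and 912 CPM under R837 and 562, 507 and 574 CPM under Pam3 and did not overlap (log2 difference 0.69 ± 0.13, edgeR adjusted p = 1.97e-04). Of the glycolysis list 6 of 19 tested members were higher under R837, 0 lower and 13 did not pass (median log2 difference 0.24). Hk3, a hexokinase of myeloid cells, was at 479.7, 491 and 469 CPM under R837 and 348, 332 and 349 CPM under Pam3 (log2 difference 0.49 ± 0.07, edgeR adjusted p = 2.18e-06). Slc16a1, a lactate transporter, was at 48.2, 55.3 and 64.3 CPM under R837 and 25.4, 26.7 and 27.2 CPM under Pam3 (log2 difference 1.08 ± 0.17, edgeR adjusted p = 1.11e-05). Of respiratory complex I, 0 of 36 tested members were higher under R837, 0 lower and 36 did not pass (median log2 difference -0.11). Ndufb6 and Ndufa8, its smallest p-values, had log2 differences of -0.27 ± 0.13 and -0.22 ± 0.11 (edgeR adjusted p = 0.198 and 0.224), and Ndufa8 passed in the fit of 27 wild-type libraries (edgeR adjusted p = 0.0411).

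Interferon response genes were partly higher under R837. In the type I interferon list 18 of 34 tested members were higher under R837, 0 lower and 16 did not pass (median log2 difference 0.65), against a median of -0.015 over all genes tested. The count of higher members was 8 in the fit of 6 libraries with the Y-linked level as a term, and between 13 and 21 when any 1 of the 6 libraries was left out, lowest without R837 replicate 3. Oas1a, a sensor that makes the second messenger for RNase L, was at 215, 252 and 289 CPM under R837 and 123, 129.6 and 113 CPM under Pam3 (log2 difference 1.05 ± 0.13, edgeR adjusted p = 1.03e-07). Isg20, an exonuclease, was at 47.3, 76.5 and 114 CPM under R837 and 11.1, 23.8 and 13.3 CPM under Pam3 (log2 difference 2.31 ± 0.31, edgeR adjusted p = 9.44e-07). The groups were separated in both genes, and Isg20 did not pass in that fit (edgeR adjusted p = 0.211). Ifi44, also of the list, was at 88.4, 132 and 217 CPM under R837 and 33.8, 36 and 30.1 CPM under Pam3 (log2 difference 2.13 ± 0.40, edgeR adjusted p = 2.32e-04). Among genes outside the list, Slfn4, a Schlafen family member, stood at 19.6, 32.2 and 43 CPM under R837 and 4.72, 5.02 and 3.85 CPM under Pam3 (log2 difference 2.81 ± 0.35, edgeR adjusted p = 1.58e-07). Sp110, a nuclear body protein, was at 25, 37 and 49.6 CPM under R837 and 6.69, 10.0 and 5.82 CPM under Pam3 (log2 difference 2.32 ± 0.22, edgeR adjusted p = 2.70e-10). Phf11a was at 9.79, 15.1 and 31.2 CPM under R837 and 2.95, 5.27 and 2.85 CPM under Pam3 (log2 difference 2.35 ± 0.46, edgeR adjusted p = 2.60e-04). Trim30b was at 8.24, 10.6 and 19.8 CPM under R837 and 1.96, 3.58 and 2.37 CPM under Pam3 (log2 difference 2.30 ± 0.48, edgeR adjusted p = 8.06e-04). In that fit edgeR adjusted p was 0.0668 for Sp110, 0.0882 for Ifi44, 0.18 for Phf11a and 0.0538 for Trim30b, and the log2 differences were 2.29, 2.03, 2.22 and 2.21. Slfn1, of the same family as Slfn4, was at 30.9, 38.3 and 90.7 CPM under R837 and 11.7, 9.38 and 9.62 CPM under Pam3 (log2 difference 2.38 ± 0.51, edgeR adjusted p = 9.58e-04). The Schlafen, Oas1, Trim30 and Phf11 families have near-identical members, so reads may be split among them.

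Other interferon response genes did not pass. Rsad2, which encodes the antiviral protein viperin, was at 589, 633 and 935 CPM under R837 and 541, 1448 and 894 CPM under Pam3, with the highest library under Pam3 (log2 difference -0.42 ± 0.36, edgeR adjusted p = 0.555; edgeR adjusted p = 0.00102 with no filter on low counts). Cxcl10, a chemokine of interferon responses, stood at 218, 196 and 297 CPM under R837 and 209, 751 and 423 CPM under Pam3 (log2 difference -0.96 ± 0.41, edgeR adjusted p = 0.144; edgeR adjusted p = 0.044 without Pam3 replicate 1 and 2.89e-18 with no filter on low counts). The groups overlapped. Within the list the order of libraries was shared: R837 replicate 1 was the lowest R837 library in 32 of the 34 genes (37.6% of all genes), R837 replicate 3 the highest in 31 (39.0%) and Pam3 replicate 2 the highest Pam3 library in 30 (36.3%). These libraries differ in their Y-linked level, and when libraries of the same level were set against each other the difference was unequal. With a near-zero level, R837 was above Pam3 in 33 of 34 (median log2 difference 1.24). At the intermediate level the count was 30 of 34 (median log2 difference 0.73). At the high level it was 16 of 34 (median log2 difference -0.02). Over all genes the medians were -0.007, -0.003 and 0. Each of these is 1 library against 1, so no test was made, and the part of the Y-linked level in the result was not tested.

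**Figure D4:**
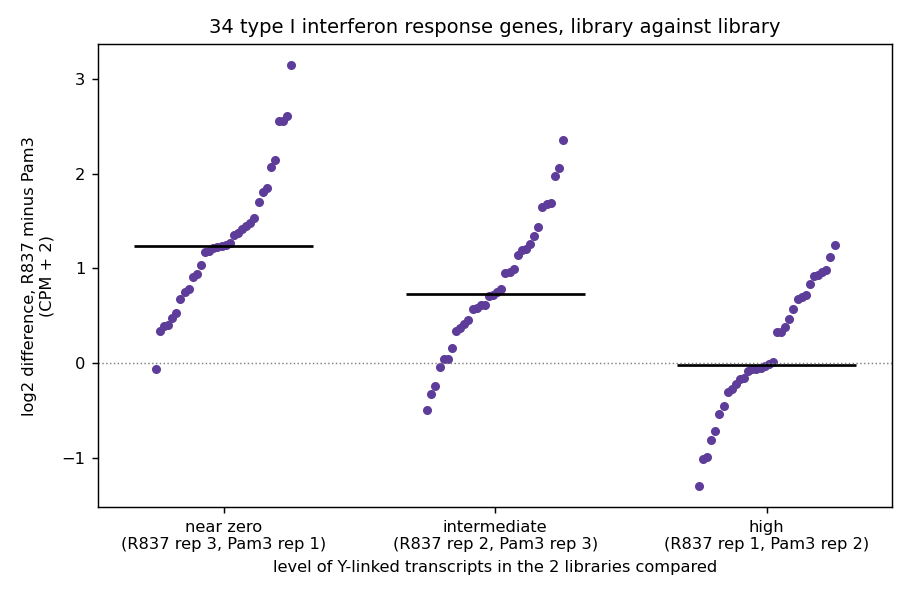
Log2 difference between 1 R837 and 1 Pam3 library, from CPM plus 2 (vertical axis), for the 34 type I interferon response genes, sorted within each of 3 pairs of libraries matched by their level of Y-linked transcripts (horizontal axis); the line is the median. The median is 1.24 at the near-zero level, 0.73 at the intermediate level and -0.02 at the high level.

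At 4 h the same 34 genes were all higher under R837, against 10.4% of all genes tested, with a median log2 difference of 2.63. The difference was smaller at 8 h than at 4 h in 28 of the 34 genes and larger in none. Over all genes tested it was more negative at 8 h in 5.12% and more positive in 6.05%. From 4 h to 8 h the mean CPM under R837 was lower in 25 of the 34, and that under Pam3 was higher in all 34. The shares of all genes with such changes in mean CPM were not computed. Rsad2 went from 7548 ± 523 CPM to 719 ± 189 CPM under R837 and from 129 ± 15.9 CPM to 961 ± 457 CPM under Pam3. The levels of Rsad2 under the 2 ligands thus overlapped by 8 h.

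Guanylate-binding proteins and immunity-related GTPases attack vacuoles of intracellular microbes. Of these genes, 6 of 18 tested members were higher under R837, 0 lower and 12 did not pass (median log2 difference 1.0), and the higher count was between 3 and 7 when any 1 of the 6 libraries was left out, lowest without Pam3 replicate 1, Pam3 replicate 3 or R837 replicate 3. It was 0 in the 6-library fit with the Y-linked level. Set side by side at the same Y-linked level, R837 was above Pam3 in 18 of 18 (median log2 difference 1.64) at the near-zero level, 17 of 18 (median log2 difference 0.64) at the intermediate and 6 of 18 (median log2 difference -0.12) at the high level. Gbp2 was at 1135, 1624 and 2119 CPM under R837 and 492, 771 and 582 CPM under Pam3 (log2 difference 1.40 ± 0.31, edgeR adjusted p = 0.00135). Gbp3 was at 376, 596 and 812 CPM under R837 and 161, 266 and 193 CPM under Pam3 (log2 difference 1.52 ± 0.24, edgeR adjusted p = 1.33e-05). Gbp9 was at 57.9, 87.4 and 118 CPM under R837 and 18.1, 30.3 and 18.1 CPM under Pam3 (log2 difference 1.99 ± 0.24, edgeR adjusted p = 1.39e-07). In the 6-library fit with the Y-linked level their log2 differences were 1.38, 1.48 and 1.97, with edgeR adjusted p of 0.21, 0.251 and 0.168. Every R837 library exceeded every Pam3 library in the 3 genes, whose copies share sequence.

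Of MHC class I and immunoproteasome genes, 11 of 16 tested members were higher under R837, 0 lower and 5 did not pass (median log2 difference 0.67). At the near-zero, intermediate and high Y-linked levels R837 was above Pam3 in 16 of 16 (median log2 difference 0.71), 16 of 16 (median log2 difference 0.67) and 15 of 16 (median log2 difference 0.36). Tapbp, which loads peptides, was at 1212, 1285 and 1302 CPM under R837 and 769, 782 and 802 CPM under Pam3 (log2 difference 0.69 ± 0.10, edgeR adjusted p = 1.24e-06). Psmb9, a subunit of the immunoproteasome, was at 62.8, 75 and 96.9 CPM under R837 and 41.4, 47.5 and 39.7 CPM under Pam3 (log2 difference 0.87 ± 0.14, edgeR adjusted p = 2.65e-05). B2m, the shared light chain of MHC class I, was at 4317, 4567 and 6139 CPM under R837 and 4276, 3501 and 3602 CPM under Pam3 (log2 difference 0.40 ± 0.12, edgeR adjusted p = 0.0275), with R837 replicate 3 well above the rest and an adjusted p of 0.381 without that library. It did not pass either without Pam3 replicate 2 or 3 or with only the 6 or the 27 wild-type libraries (edgeR adjusted p = 0.125, 0.117, 0.113 and 0.0789). Of MHC class II and co-stimulation genes, 2 of 15 tested members were higher under R837, 1 lower and 12 did not pass (median log2 difference -0.01). This stands against 7.16% higher and 4.37% lower over all genes tested. Cd86, a co-stimulatory ligand, was at 15.6, 19.6 and 36.1 CPM under R837 and 14.5, 9.96 and 10.7 CPM under Pam3 (log2 difference 1.02 ± 0.21, edgeR adjusted p = 5.31e-04; edgeR adjusted p = 0.111 with only the 6 libraries and 0.0719 without R837 replicate 3). Ciita, the regulator of MHC class II, was at 1.99, 4.46 and 5.26 CPM under R837 and 9.78, 4.12 and 7.61 CPM under Pam3, where the groups overlap (log2 difference -0.89 ± 0.27, edgeR adjusted p = 0.0215; edgeR adjusted p = 0.236 with only the 6 libraries, 0.197 without Pam3 replicate 1, 0.0756 without Pam3 replicate 3 and 0.198 without R837 replicate 1).

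Of interferons, their receptors and transducers, 4 of 21 tested members were higher under R837, 1 lower and 16 did not pass (median log2 difference 0.20). Over all genes tested 7.16% were higher and 4.37% lower. Ifnar2, a chain of the type I interferon receptor, was at 241, 273 and 316 CPM under R837 and 195, 184 and 189.9 CPM under Pam3 (log2 difference 0.55 ± 0.09, edgeR adjusted p = 2.10e-05). Socs1, an inhibitor of JAK signalling, was at 8.35, 5.98 and 6.86 CPM under R837 and 11.4, 15.8 and 15.6 CPM under Pam3 (log2 difference -1.0 ± 0.31, edgeR adjusted p = 0.0246). It did not pass with limma voom (adjusted p = 0.0623) or without Pam3 replicate 2 or 3 or R837 replicate 2 or 3 (edgeR adjusted p = 0.0778, 0.091, 0.11 and 0.0989).

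Promoters of 2 of the most increased genes matched the core of the interferon-stimulated response element, searched on both strands as GAAA, any 2 bases and GAAA. They are shown because they are the 2 highest-ranked of the 15 largest increases, under the same limits on CPM and overlap, with a match and a usable window. Both windows cover the 250 bases upstream of the RefSeq start in GRCm38.p6 on the minus strand, 5′ to 3′, at chr1:130940116-130940365 and chr14:59297523-59297772, with the match in capitals.
Il19: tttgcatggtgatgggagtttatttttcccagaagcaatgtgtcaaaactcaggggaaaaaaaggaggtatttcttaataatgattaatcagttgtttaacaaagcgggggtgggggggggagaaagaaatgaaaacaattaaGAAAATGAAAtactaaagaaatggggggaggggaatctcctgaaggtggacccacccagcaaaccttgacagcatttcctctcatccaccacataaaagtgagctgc
Phf11a: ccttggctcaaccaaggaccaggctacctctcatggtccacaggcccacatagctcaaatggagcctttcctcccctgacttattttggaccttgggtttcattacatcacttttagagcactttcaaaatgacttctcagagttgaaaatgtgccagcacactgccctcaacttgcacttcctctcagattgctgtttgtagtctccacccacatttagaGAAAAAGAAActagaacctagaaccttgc
The match starts 107 bases before the start of Il19 and 29 bases before that of Phf11a. Over the promoters of tested genes, the element occurred in 3.51% of 10256, against 6.98% of 831 among genes higher under R837, 2.17% of 507 among lower genes, 17.7% of 164 among genes higher by over 2-fold and 44.0% of 25 in the type I interferon list. The cAMP response element, TGAC followed by GTCA, was found in 2.97%, 2.17% and 3.75% of promoters of tested, higher and lower genes.

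Toll-like receptors and NF-kB regulators were higher under R837 in part. Of receptors and adaptors, 6 of 21 tested members were higher under R837, 0 lower and 15 did not pass (median log2 difference 0.25). Tlr3, an endosomal receptor for double-stranded RNA, was at 51.5, 83.7 and 114 CPM under R837 and 22.7, 48.8 and 32.9 CPM under Pam3 (log2 difference 1.26 ± 0.25, edgeR adjusted p = 3.77e-04; 0.146 with only the 6 libraries and 0.382 in the fit with the Y-linked level). Tlr9, an endosomal receptor for DNA, was at 9.0, 11.8 and 14.8 CPM under R837 and 6.46, 4.12 and 5.92 CPM under Pam3 (log2 difference 1.10 ± 0.25, edgeR adjusted p = 0.00178). The receptor for R837, Tlr7, stood at 258, 305 and 371 CPM under R837 and 212, 247 and 217 CPM under Pam3 (log2 difference 0.47 ± 0.16, edgeR adjusted p = 0.0458). Its groups were separate, but leaving out R837 replicate 3 gave an edgeR adjusted p of 0.335, and it did not pass without R837 replicate 2 (0.0879), Pam3 replicate 1 (0.179) or Pam3 replicate 3 (0.143), with limma voom (0.0571) or in the 6-library fit with the Y-linked level (0.0738). Tlr2, a receptor for Pam3, was at 741, 862 and 1069 CPM under R837 and 1079.9, 1058 and 1040.3 CPM under Pam3 and did not pass (log2 difference -0.25 ± 0.12, edgeR adjusted p = 0.179; edgeR adjusted p = 0.0379 without R837 replicate 3). Of NF-kB subunits and inhibitors, 9 of 20 tested members were higher under R837, 0 lower and 11 did not pass (median log2 difference 0.27). Nfkbiz, which encodes the nuclear cofactor IkB zeta, was at 1030.4, 1198 and 1406 CPM under R837 and 470.0, 584 and 505 CPM under Pam3 (log2 difference 1.22 ± 0.11, edgeR adjusted p = 1.01e-10). Tnfaip3, the ubiquitin-editing enzyme A20, was at 828, 1162 and 1483 CPM under R837 and 605, 703 and 636 CPM under Pam3 (log2 difference 0.84 ± 0.13, edgeR adjusted p = 7.14e-06). N4bp1, the gene deleted in the knockout cells, was at 416, 443 and 471 CPM under R837 and 267, 310.1 and 289.9 CPM under Pam3 and higher in each R837 library (log2 difference 0.62 ± 0.10, edgeR adjusted p = 1.40e-05). The number of higher genes was between 6 and 11 when any 1 of the 6 libraries was left out, lowest without Pam3 replicate 3 or R837 replicate 3. Among the IkB kinases and adaptors, 3 of 18 tested members were higher under R837, 3 lower and 12 did not pass (median log2 difference 0.03). The shares over all genes tested were 7.16% and 4.37%. Azi2 and Map3k8, an adaptor of TBK1 and the kinase TPL2, had log2 differences of 0.56 ± 0.11 and 0.62 ± 0.14 (edgeR adjusted p = 1.93e-04 and 0.00103). Ikbke was at 420.2, 458 and 462 CPM under R837 and 367, 331 and 337 CPM under Pam3 (log2 difference 0.37 ± 0.11, edgeR adjusted p = 0.0159) and did not pass without Pam3 replicate 2 or 3 or R837 replicate 2 or 3 (edgeR adjusted p = 0.0672, 0.0672, 0.0599 and 0.0756). Tbk1, its relative, was at 221, 244 and 291 CPM under R837 and 224, 251 and 222 CPM under Pam3 with overlapping groups (log2 difference 0.12 ± 0.08, edgeR adjusted p = 0.44). The lower members were Ikbkg, Map3k7 and Traf3, at log2 differences of -0.31 ± 0.10, -0.28 ± 0.09 and -0.37 ± 0.12 (edgeR adjusted p = 0.0262, 0.0322 and 0.0393), and the count of lower members was between 0 and 3 when any 1 of the 6 libraries was left out, lowest without Pam3 replicate 3, R837 replicate 2 or R837 replicate 3.

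Of cell death and inflammasome genes, 9 of 26 tested members were higher under R837, 2 lower and 15 did not pass (median log2 difference 0.17). Mlkl, the executor of necroptosis, was at 84.3, 112 and 131 CPM under R837 and 35.7, 57.5 and 45.7 CPM under Pam3 (log2 difference 1.24 ± 0.15, edgeR adjusted p = 4.80e-08; 0.158 in the fit with the Y-linked level). Pycard, the inflammasome adaptor ASC, was at 85.4, 87.9 and 101 CPM under R837 and 53.9, 48.9 and 46.3 CPM under Pam3 (log2 difference 0.88 ± 0.12, edgeR adjusted p = 4.79e-07). Casp8, the protease that cleaves N4BP1, was at 109, 123 and 149.7 CPM under R837 and 68.5, 90.1 and 70.7 CPM under Pam3 (log2 difference 0.74 ± 0.13, edgeR adjusted p = 4.10e-05). All 3 were higher in every R837 library. Nlrp3 was at 586, 714 and 761 CPM under R837 and 597, 702 and 722 CPM under Pam3, with overlapping groups (log2 difference 0.03 ± 0.14, edgeR adjusted p = 0.945). The lower genes were Pmaip1 and Fadd, at log2 differences of -0.76 ± 0.21 and -0.47 ± 0.15 (edgeR adjusted p = 0.0119 and 0.0406). Fadd, the adaptor of caspase-8, did not pass without Pam3 replicate 1 or 3 or R837 replicate 2 or 3 (edgeR adjusted p = 0.115, 0.133, 0.172 and 0.103), and Pmaip1 did not without R837 replicate 1 (0.0828). In the list of TNF family ligands and receptors, 2 of 16 tested members were higher under R837, 0 lower and 14 did not pass (median log2 difference 0.35). The shares over all genes tested were 7.16% and 4.37%. Tnfsf9, the ligand of 4-1BB, was at 79.2, 111 and 158 CPM under R837 and 40.0, 49.8 and 44.4 CPM under Pam3 (log2 difference 1.38 ± 0.19, edgeR adjusted p = 1.28e-06; 0.137 in the fit with the Y-linked level). Tnfrsf11a, the receptor RANK, was at 201, 222 and 217 CPM under R837 and 111, 110.4 and 124 CPM under Pam3 (log2 difference 0.89 ± 0.13, edgeR adjusted p = 4.14e-06).

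Of AP-1, EGR and dual-specificity phosphatase genes, which respond early to MAP kinases or feed back on them, 7 of 24 tested members were higher under R837, 1 lower and 16 did not pass (median log2 difference 0.36). Dusp5, a nuclear phosphatase of ERK, was at 7.38, 9.25 and 8.99 CPM under R837 and 1.62, 1.81 and 2.04 CPM under Pam3 (log2 difference 2.21 ± 0.23, edgeR adjusted p = 1.07e-09). Dusp1, a phosphatase of p38 and JNK, was at 303, 379 and 473 CPM under R837 and 158, 143 and 139 CPM under Pam3 (log2 difference 1.39 ± 0.15, edgeR adjusted p = 3.16e-09). Dusp6, a cytoplasmic phosphatase of ERK, was lower at 11.4, 5.28 and 3.28 CPM under R837 and 15.5, 24.4 and 21.4 CPM under Pam3 (log2 difference -1.61 ± 0.28, edgeR adjusted p = 6.30e-05; edgeR adjusted p = 0.105 with only the 6 libraries). Each group was separated from the other in the 3 genes. Of mRNA decay factors, 4 of 9 tested members were higher under R837, 1 lower and 4 did not pass (median log2 difference 0.30). Zfp36, or tristetraprolin, which destabilizes cytokine mRNA, was at 875, 1011 and 1129 CPM under R837 and 514, 573 and 534 CPM under Pam3 (log2 difference 0.90 ± 0.09, edgeR adjusted p = 3.98e-10). Zc3h12d was at 68.3, 62.6 and 62.2 CPM under R837 and 42.5, 38.6 and 41.8 CPM under Pam3 (log2 difference 0.65 ± 0.13, edgeR adjusted p = 2.27e-04). Of adenosine and nucleotide signalling genes, 8 of 21 tested members were higher under R837, 1 lower and 12 did not pass (median log2 difference 0.32). Adora2b, a receptor for adenosine, was at 48.6, 71.7 and 92.9 CPM under R837 and 24.1, 19.8 and 21.2 CPM under Pam3 (log2 difference 1.71 ± 0.17, edgeR adjusted p = 4.81e-10). Entpd1, the ectoenzyme CD39, was at 28.7, 31.2 and 40.9 CPM under R837 and 18.2, 14.8 and 17 CPM under Pam3 (log2 difference 1.01 ± 0.13, edgeR adjusted p = 4.22e-07). The 1 lower gene was Adcy7, an adenylyl cyclase, at a log2 difference of -0.46 ± 0.13 (edgeR adjusted p = 0.0167; 0.0678 without Pam3 replicate 3 and 0.161 without R837 replicate 3). The higher count was between 4 and 7 when any 1 of the 6 libraries was left out, lowest without R837 replicate 3.

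Among stress genes the unfolded protein response was partly higher and NRF2 targets partly lower. In the unfolded protein response 7 of 15 tested members were higher under R837, 0 lower and 8 did not pass (median log2 difference 0.24). Xbp1, its transcription factor, was at 134, 148 and 167 CPM under R837 and 113, 118 and 102 CPM under Pam3 (log2 difference 0.43 ± 0.08, edgeR adjusted p = 1.39e-04). Hspa5, the chaperone BiP, was at 879, 1033 and 1157 CPM under R837 and 764, 832 and 736 CPM under Pam3 (log2 difference 0.40 ± 0.08, edgeR adjusted p = 3.51e-04; 0.0539 with only the 6 libraries). Of NRF2 targets, which buffer oxidative stress, 0 of 20 tested members were higher under R837, 7 lower and 13 did not pass (median log2 difference -0.24). Gclm, the modifier subunit for glutathione synthesis, was at 126, 122 and 111 CPM under R837 and 171, 194 and 196 CPM under Pam3 (log2 difference -0.65 ± 0.13, edgeR adjusted p = 4.30e-04). Srxn1, sulfiredoxin, was at 221, 225 and 233 CPM under R837 and 342, 302 and 327 CPM under Pam3 (log2 difference -0.52 ± 0.11, edgeR adjusted p = 7.95e-04). The number of lower members was between 3 and 7 when any 1 of the 6 libraries was left out, lowest without Pam3 replicate 3. At 4 h 7 of the 20 were higher under R837 and 1 was lower, against 10.4% and 11.5% of all genes tested at that time. Txnrd1, thioredoxin reductase, was at 505, 556 and 548 CPM under R837 and 670.0, 677 and 706 CPM under Pam3 (log2 difference -0.35 ± 0.10, edgeR adjusted p = 0.012), and it did not pass without Pam3 replicate 3 or R837 replicate 1 (edgeR adjusted p = 0.0573 and 0.0569). In the integrated stress response 3 of 19 tested members were higher under R837, 0 lower and 16 did not pass (median log2 difference 0.10), including Vegfa at 0.58 ± 0.14 (edgeR adjusted p = 0.00483) and Ddit4 at 0.92 ± 0.25 (edgeR adjusted p = 0.00992), which did not pass with limma voom (0.146) or without Pam3 replicate 2 (0.0944) or R837 replicate 2 (0.0779). Of the cell cycle list 2 of 28 tested members were higher under R837, 1 lower and 25 did not pass (median log2 difference -0.02). These counts are near the shares of all genes tested, 7.16% higher and 4.37% lower. Ccnd2, cyclin D2, was at a log2 difference of 1.11 ± 0.34 (edgeR adjusted p = 0.0253; 0.273 without R837 replicate 3) and E2f1 at -0.38 ± 0.12 (edgeR adjusted p = 0.0327; 0.301 without R837 replicate 3), and both also lost their calls without Pam3 replicate 2 or 3 or R837 replicate 2 and with only the 6 libraries.

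The 15 largest decreases among called genes of at least 5 CPM without overlap between the groups included, besides Cxcl3, Ccl22 and Dusp6, genes of varied known roles. Lad1, an anchoring filament protein, was at 7.49, 7.62 and 7.39 CPM under R837 and 26.7, 21.5 and 21.7 CPM under Pam3 (log2 difference -1.64 ± 0.26, edgeR adjusted p = 1.53e-05). Hhex, a homeobox transcription factor, was at 4.74, 2.88 and 2.78 CPM under R837 and 9.03, 12.5 and 10.2 CPM under Pam3 (log2 difference -1.59 ± 0.26, edgeR adjusted p = 2.25e-05). Gfi1, a transcriptional repressor, was at 4.19, 3.26 and 2.78 CPM under R837 and 10.9, 9.10 and 9.07 CPM under Pam3 (log2 difference -1.50 ± 0.35, edgeR adjusted p = 0.00278; limma voom adjusted p = 0.0629). Each was separated between the ligands. Plxna2, a semaphorin receptor, had a log2 difference of -1.52 ± 0.27, Itgb8, an integrin subunit that activates TGF-beta, -1.48 ± 0.31, Rgs2, a regulator of G-protein signalling, -1.45 ± 0.25 and Osbpl3, an oxysterol-binding protein relative, -1.23 ± 0.11 (edgeR adjusted p = 7.51e-05, 7.13e-04, 4.63e-05 and 3.17e-11). Clec5a, a myeloid C-type lectin, stood at 116, 124 and 129 CPM under R837 and 267, 267 and 271 CPM under Pam3, a gap much wider than the spread within either group (log2 difference -1.12 ± 0.12, edgeR adjusted p = 2.02e-09). Cx3cr1, the fractalkine receptor, was at 11.4, 11.3 and 8.15 CPM under R837 and 17.7, 26.3 and 23 CPM under Pam3 (log2 difference -1.12 ± 0.20, edgeR adjusted p = 7.08e-05). In the homeostatic and scavenging list 4 of 20 tested members were higher under R837, 2 lower and 14 did not pass (median log2 difference 0.06), and the higher count was between 0 and 4 when any 1 of the 6 libraries was left out, lowest without Pam3 replicate 3. Over all genes tested 7.16% were higher and 4.37% lower in the main fit. Maf, a transcription factor of macrophage identity, was at 0.53 ± 0.15 (edgeR adjusted p = 0.0119; 0.124 without Pam3 replicate 1, 0.0619 without Pam3 replicate 3 and 0.106 without R837 replicate 1). Cox16, Tmem184c and Polr3g, a cytochrome oxidase assembly factor, a transmembrane protein and an RNA polymerase III subunit, were lower by log2 differences of -1.28, -1.16 and -1.14 (edgeR adjusted p = 3.76e-04, 2.78e-06 and 0.00251).

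Several genes with large differences in mean CPM had log2 differences below 1 in size. Igf1, insulin-like growth factor 1, was at 408, 456 and 468 CPM under R837 and 674, 711 and 749 CPM under Pam3 (log2 difference -0.68 ± 0.13, edgeR adjusted p = 1.38e-04). Malt1, the paracaspase, had a log2 difference of -0.67 ± 0.11, Fam20c, a secretory kinase, -0.58 ± 0.10 and Txnip, a thioredoxin inhibitor, -0.53 ± 0.09 (edgeR adjusted p = 2.96e-05, 5.34e-05 and 1.98e-05). Mtpn, Anxa5 and Pgd were lower by -0.31, -0.18 and -0.26 on the log2 scale (edgeR adjusted p = 0.0193, 0.0456 and 0.0165). These calls depended on the setting: over all alternatives the adjusted p ranged from 7.14e-04 to 0.0826 for Mtpn, 0.0127 to 0.424 for Anxa5 and 0.00732 to 0.14 for Pgd. Anxa5 lost its call without Pam3 replicate 1, 2 or 3 or R837 replicate 1 or 2, Mtpn without Pam3 replicate 2 or R837 replicate 1 or 2, and Pgd without Pam3 replicate 3 or R837 replicate 3. In the other direction Actb, beta-actin, was at 4272, 4296 and 4128 CPM under R837 and 2913, 2781 and 3038 CPM under Pam3 (log2 difference 0.54 ± 0.10, edgeR adjusted p = 2.39e-04), so this often-used reference gene was not level between the ligands. Eif4g2, a translation factor, was at a log2 difference of 0.38 ± 0.08, and the lysosomal genes Npc2 and Grn at 0.67 ± 0.12 and 0.44 ± 0.09 (edgeR adjusted p = 5.80e-04, 4.07e-05 and 2.91e-04). Ctsl, cathepsin L, was at 0.39 ± 0.11 (edgeR adjusted p = 0.017; 0.0877, 0.0636 and 0.161 without Pam3 replicate 2, Pam3 replicate 3 and R837 replicate 3). In the lysosome and TFEB list 8 of 33 tested members were higher under R837, 2 lower and 23 did not pass (median log2 difference 0.03), with Lamp2 at 0.35 ± 0.07 (edgeR adjusted p = 0.00102; 0.0578 without R837 replicate 3). The higher count was between 4 and 12 when any 1 of the 6 libraries was left out, lowest without R837 replicate 3, and 1 with only the 6 libraries. Over all genes tested 7.16% were higher and 4.37% lower in the main fit. Among proteases and coagulation factors 4 of 18 tested members were higher under R837, 0 lower and 14 did not pass (median log2 difference 0.28), with the smallest p in Thbs1 at 1.07 ± 0.21 (edgeR adjusted p = 2.96e-04; 0.0882 with only the 6 libraries). The higher count there was between 2 and 4 when any 1 of the 6 libraries was left out, lowest without Pam3 replicate 1 or R837 replicate 1.

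**Figure D5:**
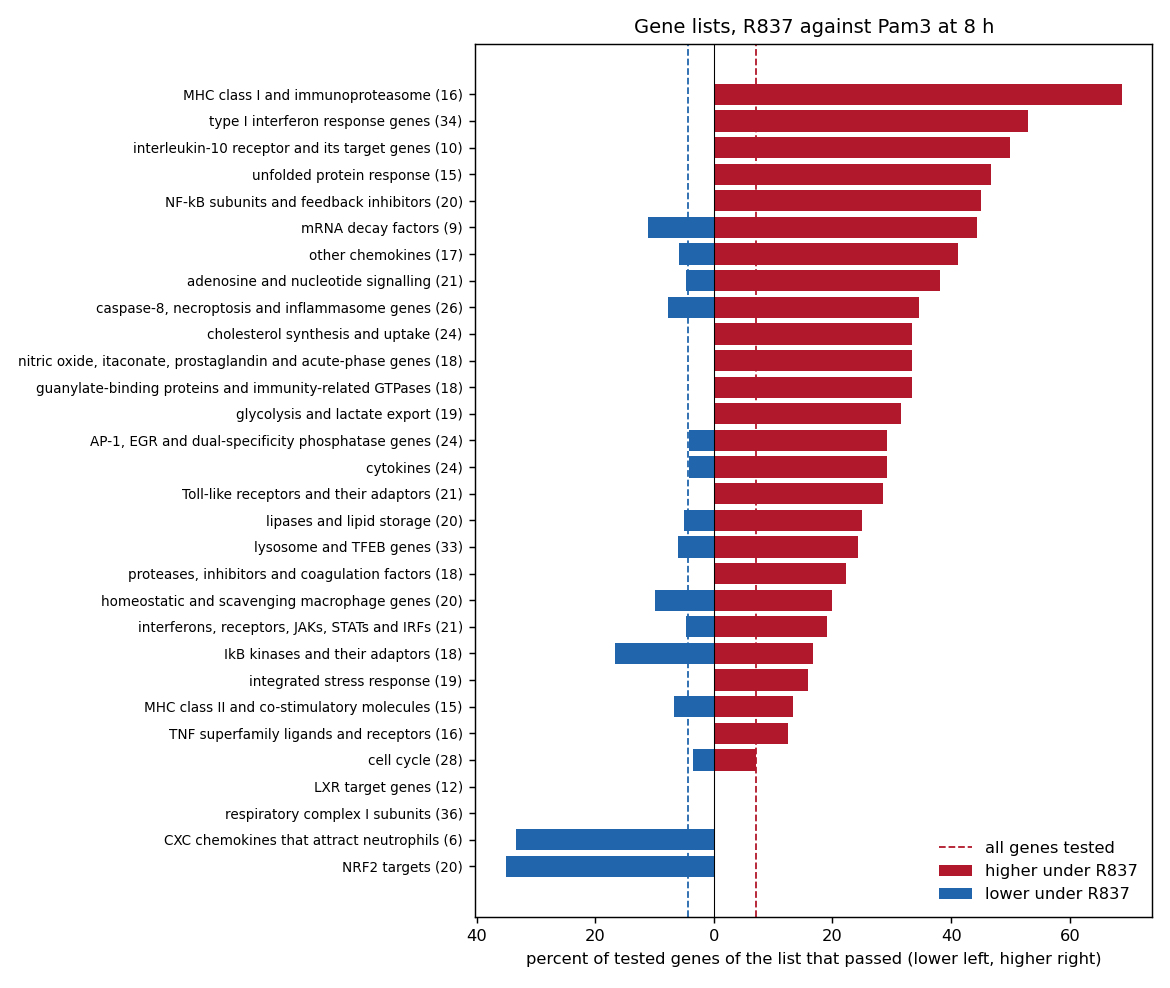
Percent of the tested genes of each list that were higher under R837 (red, right) or lower (blue, left), with the number tested in brackets; dashed lines mark all genes tested, 7.16% and 4.37%. MHC class I genes (11 of 16) and type I interferon response genes (18 of 34) have the longest bars to the right, and NRF2 targets (7 of 20) extend left.

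Markers of other cell types were tested gene by gene and summed in each library. Cd8a, a marker of T cells and a subset of dendritic cells, was among the most increased genes at 5.29, 8.98 and 15.5 CPM under R837 and 2.49, 0.947 and 1.66 CPM under Pam3 (log2 difference 2.54 ± 0.60, edgeR adjusted p = 0.00266), and the summed T and NK cell markers were 14.4 to 26.2 CPM under R837 and 10.1 to 14.9 CPM under Pam3. Monocyte markers summed to 94.4 to 185 CPM under R837 and 67.7 to 112 CPM under Pam3. Of these, 2 of 6 passed, among them the chemokine receptor Ccr2 at a log2 difference of 1.15 ± 0.21 (edgeR adjusted p = 1.25e-04). Neutrophil markers summed to 125 to 196 CPM and 100.2 to 154 CPM, with S100a8 at 0.84 ± 0.23 (edgeR adjusted p = 0.0116; 0.151 without R837 replicate 3, 0.0676 without Pam3 replicate 2 and 0.0532 without Pam3 replicate 3). Dendritic cell markers summed to 457 to 502 CPM under R837 and 329 to 446 CPM under Pam3. Erythroid and megakaryocyte markers summed to 247 to 276 CPM under R837 and 294 to 335 CPM under Pam3, and osteoclast markers to 113 to 136 CPM under R837 and 172 to 202 CPM under Pam3. On raw library totals these 3 sums did not overlap between the ligands, whereas those of the other 6 lists did. The TMM scaling factors used in the tests were 0.869 to 0.958 under R837 and 1.01 to 1.03 under Pam3. Whether sums overlap may therefore depend on the scaling. Endothelial Cdh5 and Pecam1 were at 1.96 ± 0.46 and 0.99 ± 0.25, the dendritic cell marker Bst2 at 0.55 ± 0.18 and the osteoclast marker Dcstamp at -1.35 ± 0.27 (edgeR adjusted p = 0.00247, 0.0053, 0.037 and 4.31e-04). Bst2, which interferon also induces, did not pass when any 1 library other than Pam3 replicate 1 was left out. Most members of these lists did not pass. Higher were 2 of 10 stromal and endothelial markers (median log2 difference 0.188), 1 of 8 dendritic cell markers (median -0.133) and 1 of 9 neutrophil markers (median 0.766), with 0 lower. Of 6 osteoclast markers 1 was lower and 0 higher (median -0.33). Of 63 tested markers in 9 lists of other cell types, 7 were higher under R837 and 1 lower, against 7.16% and 4.37% of all genes tested. Of all 73 the mast cell gene Mcpt4 was the 1 at 0 in all 6 libraries. With so few markers these counts are not a result about other cell types. Their part in the results was not tested. Treml2 and Ms4a4c, myeloid surface proteins among the largest increases, were at 5.32, 9.79 and 17.6 CPM under R837 and 3.10, 2.22 and 1.99 CPM under Pam3 and 281, 430.3 and 773 CPM under R837 and 136, 83.6 and 85.8 CPM under Pam3 (log2 differences 2.17 ± 0.44 and 2.28 ± 0.39, edgeR adjusted p = 4.85e-04 and 5.53e-05).

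The 8 h difference was then tested against that at 4 h in wild type and against the 8 h difference in N4bp1 knockout cells. Against 4 h, 906 genes had a more positive difference at 8 h (6.05%) and 767 a more negative one (5.12%). At 4 h itself 1558 genes were higher under R837 (10.4%) and 1717 lower (11.5%), 3275 in all (21.9%). The most negative shifts were in Cxcl10, whose log2 difference was 5.75 at 4 h and -0.96 at 8 h, and in Rsad2, at 5.87 and -0.42. Spred3, an inhibitor of MAP kinase signalling, went from -0.57 to 1.73. Without Pam3 replicate 1 at 8 h the positive share of these calls was 45.2%, against 54.2% with it. It was 46.0% and 47.5% without Pam3 replicate 2 or 3 at 4 h. With a minimum count of 50 it was 48.9%, and 49.1% with no filter on low counts. In the other alternatives it was 51.3% to 55.1%, so the larger direction depended on the setting.

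In knockout cells 1787 genes were higher under R837 (11.9%) and 1623 lower (10.8%), but the difference itself differed between genotypes for 16 genes in the positive direction (0.107%) and 14 in the negative (0.0935%). Unadjusted p was under 0.05 for 1852 genes. The 6 knockout libraries held 0 to 0.52 CPM of Y-linked transcripts, whereas each wild-type group spanned the 3 levels. Genotype and Y-linked level therefore cannot be fully told apart in this test. The count of 30 genes in either direction was 0 with only the 12 libraries compared and ran from 9 to 629 when 1 of them was left out, highest without knockout Pam3 replicate 1 and 218 without replicate 2. Spsb4, an adaptor of ubiquitin ligases, had log2 differences of -0.35 in wild type and -3.26 in knockout. Without knockout Pam3 replicate 3, a library with 12263 genes detected, the difference between these was 1.52 instead of 2.91 (edgeR adjusted p = 0.191). The values of Cd300e, a myeloid receptor, were 1.76 and 3.02. Lipg and Il10 did not pass this test (edgeR adjusted p = 0.374 and 0.107), with log2 differences in knockout cells of 5.50 and 3.61.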

How the data were processed

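The authors deposited, for each of the 54 libraries, whole-number counts of reads over exons for 52636 genes, not normalized. Per the submitters' processing notes, reads were aligned with GSNAP to GRCm38, with counting tool and strand setting not given in the sources used here, and antisense partners cannot be told apart. Symbols and locations come from GENCODE M21, and counts without a symbol were at most 0.005% of a library.

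All 54 libraries in 18 groups were fitted together (R 4.3.3, edgeR 4.0.16, TMM scaling, filterByExpr with minimum count 10 and total 15, robust quasi-likelihood, Benjamini-Hochberg). CPM values use TMM-scaled library sizes, whereas Y-linked and Xist levels and the sums of cell type markers use raw totals. The script was tested on simulated data. Alternatives were RLE scaling, other filters, fewer libraries, limma 3.58.1, DESeq2 1.42.0, a replicate block and leaving out each library. A Y-linked batch term was added after the data were seen. Members and lists were chosen with earlier results of these data known. The naming rule gave 184 genes (the 15 largest log2 changes and 10 largest CPM differences each way, up to 4 list members, 16 fixed genes, and 5 each way per difference test); of list members the first 2 are named, and single list or marker genes that moved alone, such as Il12a and Cdh5, were named after their values were seen. Some genes that the rule gives are not reported here.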

Additional observations from a re-analysis of the deposited data

Results flagged for a closer look

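The genes below were singled out because a test of the difference itself, between times or between genotypes, passed; their values are log2 differences of differences from edgeR. For 8 h against 4 h in wild type, the most negative were Cxcl10 at -6.71, Rsad2 at -6.29, the death ligand gene Tnfsf10 at -6.03, the interferon response gene Ifit3b at -5.75 and the Notch ligand gene Dll1 at -5.62. The 5 most positive were Flvcr2, a transporter, at 2.46, B3gnt7, a glycosyltransferase, at 2.37, Mnt, a MAX partner, at 2.36, Spred3 at 2.30 and Pdgfb, a growth factor, at 2.28. Flvcr2 did not pass without Pam3 replicate 3 at 8 h, Pam3 replicate 2 at 4 h, or R837 replicate 2 or 3 at 4 h (edgeR adjusted p = 0.0503, 0.0619, 0.0627 and 0.0683).

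Between wild type and knockout at 8 h the most positive were Spsb4 at 2.91, Upp1, uridine phosphorylase, at 1.67, Klf10, a transcription factor, at 1.64, Rarg, a retinoic acid receptor, at 1.24 and Csf1, the M-CSF gene, at 1.18. Among the most negative were Cd300e at -1.25, Camk1d, a kinase, at -1.24, Rin2, a RAB5 regulator, at -1.23 and Kctd12 at -1.22. None of these 9 passed when only the 12 libraries compared were fitted (edgeR adjusted p = 0.152 to 0.955). Knockout and wild-type libraries also differed in their Y-linked level, which this test cannot fully separate from genotype. The knockout Pam3 library of replicate 3 had 12263 genes detected, and without it Spsb4 was at 1.52 with an adjusted p of 0.191, and adjusted p was 0.0784 for Upp1, 0.137 for Csf1 and 0.0683 for Camk1d. Of 12 removals of 1 library, 8 ended the call for Csf1, 7 for Upp1, 5 for Camk1d, 4 for Spsb4 and 0 for the other 5 genes.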

How the results depend on the processing

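The 1726 genes called between R837 and Pam3 became 2621 in the fit of 27 wild-type libraries, with 1109 lower; the lower count of 654 was 429 with only the 6 libraries. Leaving out 1 library gave 975 to 1901 called genes, 674 to 1181 higher and 301 to 720 lower. The 30 genes that differed between genotypes became 312 with no filter on low counts, 0 with only the libraries compared, 182 with DESeq2, 68 with the replicate block, 91 with the Y-linked level as batch term and 9 to 629 when 1 library was left out. The cause was not tested. Of 143 named genes, 47 lost the call between R837 and Pam3 in at least 1 alternative and 13 gained it. With no filter on low counts 1682 genes were called, but single p-values were far smaller than in the main fit. For Lipg the edgeR adjusted p was 4.40e-224 there against 1.07e-08. Calls gained only with no filter, as for Il6 and Rsad2, therefore carry little weight. Deviations of same-number libraries correlated at -0.217, 0.051 and -0.149, and those of libraries with the same Y-linked level at 0.279, 0.142 and 0.067. The remaining pairs of a Pam3 and an R837 library were at -0.101, -0.17 and 0.104. These weak values showed no clear pairing by replicate number. The replicate block gave 1955 calls for R837 against Pam3. The Y-linked term gave 1966, or 1955 with 6 libraries. The count for 8 h against 4 h stayed within 1.5 times of 1673. Low-count genes such as Ifnb1, Il12a and Cxcl5 are limited by depth.

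Log2 differences that changed sign, all of genes that did not pass, ran when 1 library was left out from -0.018 to 0.646 for Il6, -0.237 to 0.292 for Cxcl1, -0.063 to 0.130 for Nlrp3, -0.485 to 0.307 for B3gnt7, -0.714 to 0.003 for Rsad2, -0.360 to 0.585 for Tnfsf10, -0.232 to 0.353 for Ifit3b and -0.078 to 0.017 for Rarg. B3gnt7 was also -0.002 with only the libraries compared, -0.055 with limma voom, -0.043 with the replicate block, -0.047 with the Y-linked level as batch term and -0.080 with that term in 6 libraries.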
